A study of Mus musculus with 18 samples.

Results

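The 10 nucleic acid sensor genes described here were Ddx58, Ifih1, Dhx58, Zbp1, Tlr3, Tlr7, Tlr9, Tmem173, Mb21d1 and Aim2. They were taken by symbol from a table of 30530 genes; the rule uses no measured value, though it was written with earlier results of these data known. All 10 were in the table and all 10 passed the filter on low counts, among 12741 genes that did. The cells were bone-marrow-derived macrophages (BMDM), phagocytes that were differentiated from marrow of mouse bones. Their polyadenylated RNA was sequenced in 18 libraries. The question the design poses is how 25-hydroxycholesterol (25HC), an oxysterol that the enzyme of the gene Ch25h makes from cholesterol, bears on the response to Pam3CSK4 (PAM3), a lipopeptide modelled on those of bacteria, which the pair of Toll-like receptors 1 and 2 recognises.

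The 6 groups held 3 libraries each, numbered by mouse from 1 to 3. Cells of C57BL/6 (B6) mice had no treatment, 25HC alone, PAM3 alone, or 25HC and PAM3. Cells of Ch25h-/- mice had no treatment or PAM3 alone. In their titles, the groups at rest without 25HC are marked as 25HC controls, and those with PAM3 alone are not. The titles do not say whether a vehicle was added. Whether 25HC came before PAM3 or together with it is not stated here. 25HC was given at 5 µM for 18 hours and PAM3 at 300 ng/mL. The labels give a stimulation time of 18, with no unit, for PAM3 and 0 for cells at rest, so time in culture and PAM3 cannot be told apart in a comparison of the 2. The age and sex of the mice, the form of the Ch25h allele and the culture time of cells at rest were not given in the sources used here. Within a genotype, libraries with the same mouse number came from the same animal per the labels. B6 and Ch25h-/- mice with the same number were different animals.

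Cells detect viral and bacterial nucleic acid by where it appears. Ddx58 (RIG-I), Ifih1 (MDA5) and Dhx58 (LGP2) encode helicases that bind RNA in the cytosol, and the first pair signal through the mitochondrial adaptor MAVS to type I interferon. Tlr3, Tlr7 and Tlr9 encode receptors of the endosome for double-stranded RNA, single-stranded RNA and CpG-rich DNA. Mb21d1 encodes cGAS, which makes a cyclic dinucleotide when it meets DNA in the cytosol, and Tmem173 encodes STING, which that messenger activates. Aim2 encodes a DNA receptor that assembles an inflammasome, and Zbp1 encodes a receptor for Z-form nucleic acid that can start necroptosis. The helicase genes and Zbp1 are known as interferon-stimulated genes, whose promoters often carry an interferon-stimulated response element.

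RefSeq promoters (GRCm38.p6, 250 bases before to 50 after the RefSeq gene start) were at hand for 6 of the 10 genes, Ddx58, Ifih1, Tlr3, Tlr9, Mb21d1 and Aim2. Both strands were searched for the core of the interferon-stimulated response element (GAAA, any 2 bases, GAAA), for TTCNNNGAA, the core of a STAT element, and for the NF-kB consensus. The response element core was found in 2 of the 6, Ddx58 and Ifih1, and in 3.44% of all 32851 promoters of that length. No promoter of the 6 held TTCNNNGAA, which 8.30% of all held. The NF-kB consensus was found in 1 of the 6, Tlr3, and in 8.46% of all. A match describes the letters in this window and is not a binding site, and a promoter without one says nothing about the factor.

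The stretches below are printed 5′ to 3′ on the strand of the gene, with a motif match in capitals. Ddx58, Ifih1 and Tlr3 held a match, and Tlr9 is shown beside them without one. The promoters of Mb21d1 and Aim2, also without a match, are not printed. Positions count from +1 at the RefSeq gene start, which can differ from the start of the GENCODE gene spans given below. The promoter windows of Tlr3 and Aim2 lie inside those spans. Ddx58 is shown from -250 to +30 (chr4:40239796-40240075, minus strand), with the response element core at +3 to +12, where it reads GAAATCGAAA on the opposite strand. Ifih1 is shown from +21 to +50 (chr2:62646206-62646235, minus strand), with the core at +33 to +42. Tlr3 is shown from -250 to -1 (chr8:45410381-45410630, minus strand), with the NF-kB match at -211 to -202. Tlr9 is shown from -250 to -1 (chr9:106222348-106222597, plus strand), with none of the 3 motifs.
Ddx58: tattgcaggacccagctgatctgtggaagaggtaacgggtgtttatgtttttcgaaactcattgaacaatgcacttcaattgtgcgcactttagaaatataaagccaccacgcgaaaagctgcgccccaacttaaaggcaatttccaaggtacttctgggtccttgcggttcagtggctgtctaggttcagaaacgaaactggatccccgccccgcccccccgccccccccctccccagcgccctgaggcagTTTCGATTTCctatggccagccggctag
Ifih1: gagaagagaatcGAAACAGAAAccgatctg
Tlr3: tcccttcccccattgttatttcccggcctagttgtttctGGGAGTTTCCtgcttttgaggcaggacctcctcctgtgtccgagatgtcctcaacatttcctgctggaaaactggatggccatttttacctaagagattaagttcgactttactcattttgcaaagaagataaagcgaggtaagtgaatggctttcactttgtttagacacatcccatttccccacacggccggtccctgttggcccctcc
Tlr9: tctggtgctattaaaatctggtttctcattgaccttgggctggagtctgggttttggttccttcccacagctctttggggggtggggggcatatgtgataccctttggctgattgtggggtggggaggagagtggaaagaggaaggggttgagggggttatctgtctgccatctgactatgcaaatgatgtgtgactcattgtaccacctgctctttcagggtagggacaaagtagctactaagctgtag

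Total counts ran from 14.04 to 150.4 M per library, and levels below are in CPM, counts scaled to a common library size, on library totals scaled by TMM factors. Ch25h, the targeted gene, measured 1.66 to 40.8 CPM over the 12 B6 libraries and 0 to 0.119 CPM over the 6 Ch25h-/- libraries. The summed level of 8 macrophage markers was 18945 to 58476 CPM over the libraries. Lyz2 had the highest mean of them in each group, at 11040 to 38515 CPM. Mertk ran from 9.25 to 290 CPM and C1qa from 87.4 to 1072 CPM. Cd3e and Cd3g of T cells were at 0 in all 18 libraries, and Ms4a1 of B cells did not exceed 0.343 CPM. Other markers of these cells were higher, with Lck up to 1.09 CPM and Cd79b up to 23.3 CPM. Of the neutrophil and stromal markers, Ltf reached 19.9 CPM and Col1a2 6.79 CPM. The summed levels of these 2 lists were highest in Ch25h-/- mouse 2 at rest, at 22.1 and 11.4 CPM. On the third principal component of all genes tested, with 7.93% of the variance, the library of Ch25h-/- mouse 2 at rest stood apart, at 75.6 against -45.9 to 31.3 for the others. The library of Ch25h-/- mouse 2 with PAM3 was low for several members, so values without these libraries are given where they change a call. The libraries are from separate mice within a group, and p-values rest on the spread between them. The same mice of a genotype supplied each of its groups, and the main fit did not use this pairing. Results with the animal as a block stand beside those where they change a member's call. In bulk RNA, fewer cells of a type and less RNA per cell cannot be told apart.

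**Figure D1:**
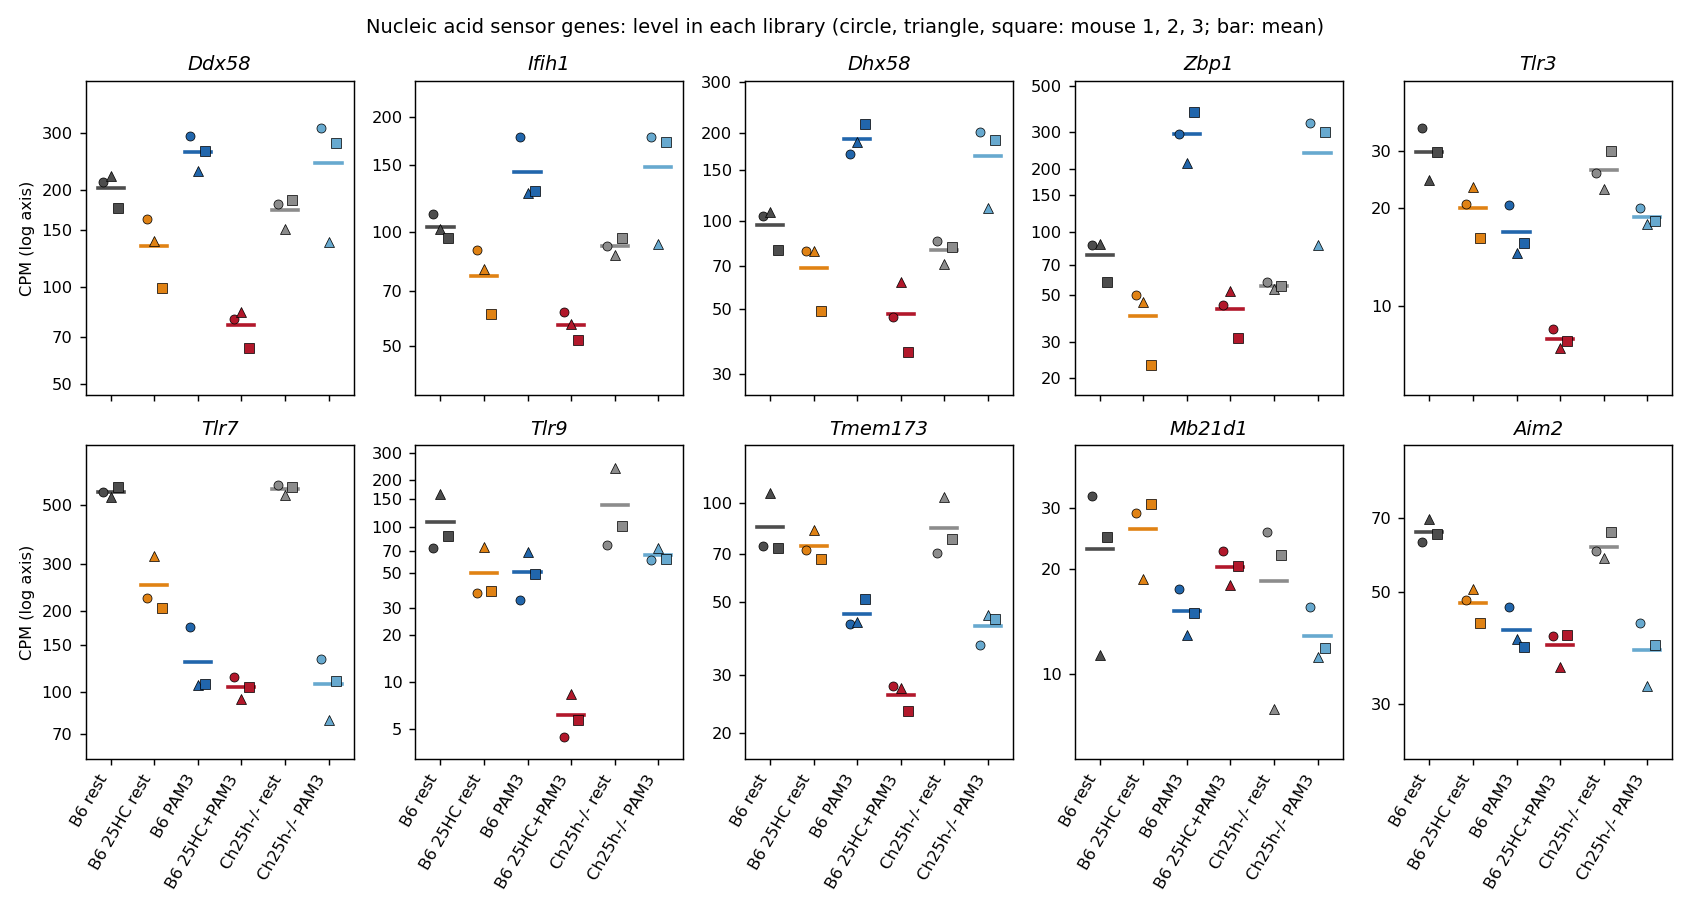
Level of each of the 10 sensor genes in CPM (logarithmic axis, its range set for each gene) in each of the 18 libraries by group; circles, triangles and squares are mice 1, 2 and 3, and the bar is the group mean. Tlr9 in 25HC-treated cells with PAM3 lies at 4.42 to 8.36 CPM, below every other library, and Zbp1 reaches 215 to 377 CPM in B6 with PAM3.

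Treatment of resting B6 macrophages with 25HC lowered 3 of the 10 sensor genes and raised 0, at an edgeR quasi-likelihood adjusted p below 0.05. Of all genes tested, 11.4% were called lower and 14.8% higher in that comparison. The 3 were Tlr7, Aim2 and Tlr3. The median log2 fold change was -0.53 over the 10 genes and -0.01 over all genes tested. With the animal as a block 6 members were called lower, the other 3 being Tlr9 (adjusted p = 0.00178), Ddx58 (adjusted p = 0.0159) and Ifih1 (adjusted p = 0.0365) by the same edgeR test. The count over all genes with that block is not reported here, so the 6 are not read as particular to the sensor genes. Without mouse 3 of untreated cells, or mouse 1 or 3 of treated cells, the genes called among all tested went from 3334 to 2097, 1524 and 1612.

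With PAM3 present, 25HC lowered 7 of the 10 and raised 0, where 23.6% of all genes tested were called lower and 21.5% higher. The 7 were Tlr9, Zbp1, Dhx58, Ddx58, Ifih1, Tlr3 and Tmem173. The median log2 fold change was -1.22 over the 10 genes and -0.04 over all genes. Tlr7, Aim2 and Mb21d1 did not pass the test. The 7 calls held under each of the 14 alternative settings.

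**Figure D2:**
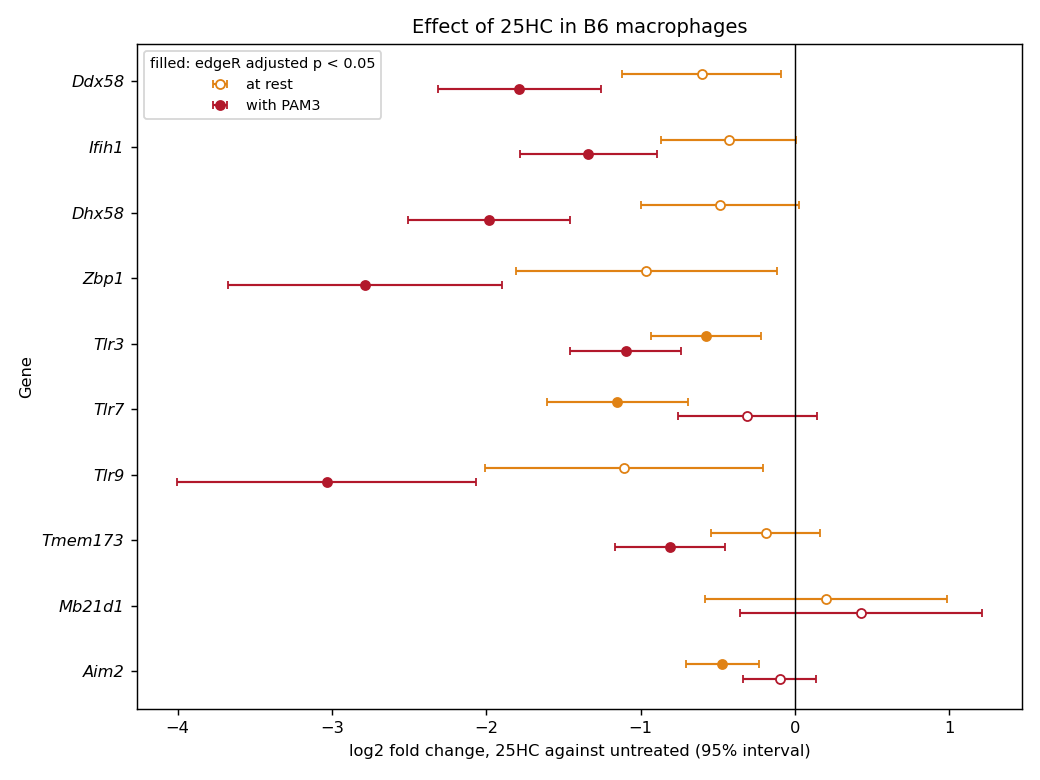
Log2 fold change of each sensor gene after 25HC in B6 cells at rest (orange) and with PAM3 (red), with 95% intervals from the edgeR fit; filled circles have an adjusted p below 0.05. With PAM3 the estimates run from -3.03 for Tlr9 to 0.43 for Mb21d1, and at rest from -1.15 for Tlr7 to 0.20 for Mb21d1.

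PAM3 alone raised 2 and lowered 5 of the 10 in untreated B6 cells, where 31.3% of all genes tested were called higher and 30.8% lower. Zbp1 and Dhx58 rose, and Tlr7, Tlr9, Tmem173, Tlr3 and Aim2 fell. In Ch25h-/- cells 3 rose and 5 fell, where 29.9% of all genes were called higher and 32.1% lower. Ifih1 rose there besides Zbp1 and Dhx58, and Tlr7, Tlr9, Tmem173, Tlr3 and Aim2 fell. Without mouse 3 of Ch25h-/- cells with PAM3, 5 of the 10 were called. The count over all genes without that library is not reported here. The drop is therefore not read as particular to the sensor genes. In 25HC-treated B6 cells PAM3 raised 0 and lowered 6, where 28.5% of all genes were called higher and 30.4% lower. Those 6 were Tlr9, Tmem173, Tlr3, Tlr7, Ddx58 and Aim2. Scaling by library totals alone shifted the median of all genes by -0.20 (untreated B6), -0.18 (B6 with 25HC) and -0.16 (Ch25h-/-) on the log2 scale, and the members named here as changed kept their direction under it.

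**Figure D3:**
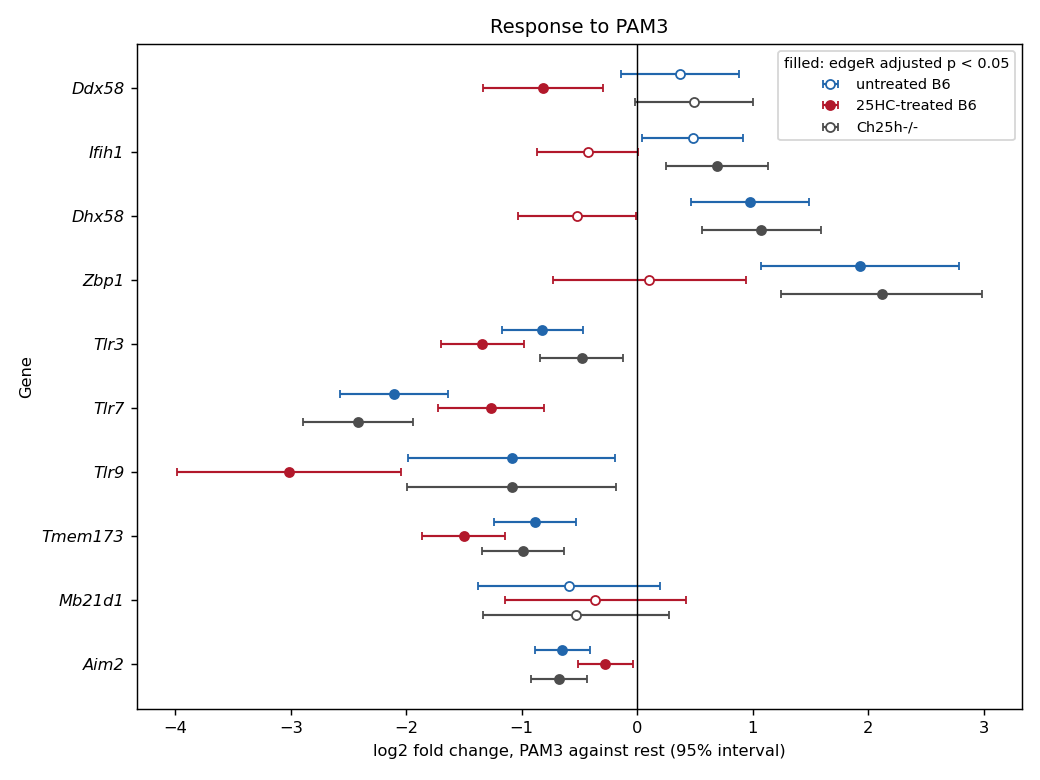
Log2 fold change of each sensor gene with PAM3 against rest for B6 without 25HC (blue), B6 with 25HC (red) and Ch25h-/- cells (grey), with 95% intervals from the edgeR fit; filled circles have an adjusted p below 0.05. Zbp1 lies at 1.93 and 2.12 in untreated B6 and Ch25h-/- cells and at 0.10 in 25HC-treated cells, and Tlr7 lies at -2.11, -1.27 and -2.42.

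The effect of 25HC differed between cells with PAM3 and cells at rest for 6 of the 10 genes by the interaction test of edgeR. It was more negative with PAM3 for 5, where 15.8% of all genes tested were called in that direction, and less negative for 1, where 12.5% were. The 5 were Tlr9, Zbp1, Dhx58, Ddx58 and Ifih1, and the 1 was Tlr7. Several of these calls turned on single libraries: 1 of the 10 was called without mouse 3 of untreated cells at rest or mouse 3 with both agents, 2 without mouse 1 of 25HC-treated cells at rest, and 3 without mouse 1 with both agents. Without any 1 of the other 8 libraries 4 to 6 were called. Over all genes, 3611 interactions went to 2351 without mouse 1 and 2288 without mouse 3 with both agents. Dhx58 was called without any 1 library. The 2 effects of 25HC and the PAM3 responses share the same 4 groups of libraries, so they are given side by side and not as independent results.

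Among the cytosolic RNA helicases, Ddx58 (chr4:40203773-40239828 on the minus strand, GRCm38) is the sensor of RNA with a 5′ triphosphate. It measured 212, 220 and 176 CPM in untreated B6 at rest and 163, 139 and 99.2 CPM after 25HC. With PAM3 it measured 294, 229 and 263 CPM without 25HC and 79.5, 83.5 and 64.5 CPM with it. The 3 libraries with both agents were the lowest of the 18, and those with PAM3 alone lay above all 3 at rest. With PAM3, 25HC lowered Ddx58 3.45-fold, a log2 change of -1.79 ± 0.25 (SE, n = 3 per group; edgeR adjusted p = 4.45e-05). At rest the log2 change was -0.60 ± 0.24 (edgeR adjusted p = 0.0768, and 0.0159 with the animal as a block). The difference between the 2 was -1.18 ± 0.34 (edgeR adjusted p = 0.0193), and the adjusted p was 0.0519 without mouse 3 of untreated cells at rest, 0.0543 without mouse 1 of 25HC-treated cells at rest and 0.0554 without mouse 3 with both agents. PAM3 lowered Ddx58 by -0.82 ± 0.24 on the log2 scale in 25HC-treated cells (edgeR adjusted p = 0.0094), and the change in untreated B6 was 0.37 ± 0.24 (edgeR adjusted p = 0.196).

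Ifih1 (chr2:62595798-62646255, minus strand) encodes the sensor of long double-stranded RNA. Its levels were 111, 102 and 96.5 CPM at rest, 89.4, 79.9 and 60.6 CPM after 25HC, 178, 126 and 128 CPM with PAM3 and 61.6, 57.0 and 52.0 CPM with both agents. The libraries with PAM3 alone did not overlap any of the other 3 B6 groups, nor did those with 25HC and PAM3 overlap the cells with PAM3 alone. With PAM3, 25HC lowered Ifih1 2.53-fold (log2 -1.34 ± 0.21, edgeR adjusted p = 0.000116). At rest the change was -0.43 ± 0.21 (edgeR adjusted p = 0.135, and 0.0365 with the animal as a block), and the difference between the 2 was -0.91 ± 0.29 (edgeR adjusted p = 0.0305). That difference missed the threshold, at -0.73 to -0.88, without mouse 3 of untreated cells at rest, mouse 1 or 2 of 25HC-treated cells at rest, mouse 1 with PAM3 or mouse 3 with both agents. The PAM3 response of untreated B6 was 0.48 ± 0.21 (edgeR adjusted p = 0.0533, and 0.014 with the animal as a block). In 25HC-treated cells it was -0.43 ± 0.21 (edgeR adjusted p = 0.086, 0.0263 with the animal as a block, and 0.0344 without mouse 3 at rest). Without mouse 2 or mouse 3 of B6 with PAM3 the response of untreated cells passed the edgeR test (adjusted p = 0.0448 and 0.0496).

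Dhx58 (chr11:100694884-100704271, minus strand) encodes a helicase that lacks the signalling domains of the other two and modulates them. It measured 104, 107 and 79.6 CPM at rest and 79.2, 79.0 and 49.1 CPM after 25HC. With PAM3 the libraries held 169, 187 and 216 CPM, and with both agents 47.0, 62.1 and 35.4 CPM. All 3 libraries with PAM3 alone lay above every B6 library of the other groups. PAM3 raised Dhx58 1.97-fold in untreated B6 (log2 0.98 ± 0.24, edgeR adjusted p = 0.00248). In the presence of PAM3, 25HC lowered it 3.95-fold (log2 -1.98 ± 0.25, edgeR adjusted p = 1.88e-05), the smallest adjusted p of the 10 genes in that comparison. The difference from the effect at rest (-0.49 ± 0.24, edgeR adjusted p = 0.145) was -1.50 ± 0.34 (edgeR adjusted p = 0.00603). In 25HC-treated cells the PAM3 change was -0.52 ± 0.24 (edgeR adjusted p = 0.0759, and 0.0299 with the animal as a block). It passed the edgeR test without mouse 3 at rest (adjusted p = 0.0209) or mouse 2 with both agents (adjusted p = 0.0243).

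Zbp1 (chr2:173206612-173218923, minus strand) had the largest rise with PAM3 of the 10 genes. It measured 87.1, 87.9 and 57.9 CPM in untreated B6 at rest and 294, 215 and 377 CPM with PAM3. After 25HC it measured 50.1, 46.1 and 23.3 CPM at rest and 44.9, 52.3 and 31.1 CPM with PAM3. The 25HC-treated libraries at rest and with PAM3 overlapped each other, whereas the untreated ones did not. PAM3 raised Zbp1 3.80-fold in untreated B6 (log2 1.93 ± 0.40, edgeR adjusted p = 0.000717). In 25HC-treated cells the change was 0.10 ± 0.39 (edgeR adjusted p = 0.835, 95% interval -0.73 to 0.94), and its sign turned under 3 settings. With PAM3, 25HC lowered Zbp1 6.90-fold (log2 -2.79 ± 0.42, edgeR adjusted p = 8.46e-05). The change at rest was -0.96 ± 0.40 (edgeR adjusted p = 0.0852), and the difference between the 2 was -1.82 ± 0.56 (edgeR adjusted p = 0.0251). That difference missed the threshold, at -1.61 to -1.86, without mouse 3 of untreated cells at rest, mouse 1 of 25HC-treated cells at rest, mouse 3 with PAM3, or mouse 1 or 3 with both agents.

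In Ch25h-/- cells with PAM3 these 4 genes had a wide spread between mice. Zbp1 measured 57.6, 53.4 and 55.0 CPM at rest and 331, 87.1 and 302 CPM with PAM3. Ddx58 measured 181, 152 and 186 CPM at rest and 311, 137 and 280 CPM with PAM3. The library of mouse 2 was the lowest of its PAM3 group for both, and for Ddx58 it lay below all 3 libraries at rest. Dhx58 went from 85.4, 71.4 and 81.5 CPM to 202, 111 and 190 CPM, and Ifih1 from 91.9, 86.7 and 96.1 CPM to 178, 93.0 and 172 CPM. That library deviated from its group mean by -1.24 for Zbp1, -0.74 for Ddx58, -0.61 for Ifih1 and -0.54 for Dhx58, in log2 CPM. PAM3 raised Zbp1 4.34-fold (log2 2.12 ± 0.41, edgeR adjusted p = 0.000385), Dhx58 2.11-fold (edgeR adjusted p = 0.00135) and Ifih1 1.61-fold (edgeR adjusted p = 0.00932). Ddx58 was at 0.49 ± 0.24 (edgeR adjusted p = 0.0892), and without mouse 2 with PAM3 it passed the edgeR test at 0.76 (adjusted p = 0.00286). The call of Ifih1 was lost without mouse 1 or mouse 3 with PAM3, with edgeR adjusted p of 0.0562 and 0.0516.

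Tlr7 (chrX:167304929-167330558, minus strand), the endosomal receptor for single-stranded RNA, was the most abundant of the 10 per kilobase of exon at rest. It measured 558, 534 and 579 CPM in untreated B6 and 224, 323 and 206 CPM after 25HC. With PAM3 it measured 175, 106 and 107 CPM, and with both agents 114, 94.4 and 105 CPM. The untreated libraries at rest stood above all others of B6, and the libraries with PAM3 alone and with both agents overlapped. 25HC lowered resting Tlr7 2.22-fold (log2 -1.15 ± 0.21, edgeR adjusted p = 0.00164), in 3 of 3 mice. PAM3 lowered it 4.31-fold in untreated cells (log2 -2.11 ± 0.22, edgeR adjusted p = 1.25e-06) and 2.41-fold in 25HC-treated cells (log2 -1.27 ± 0.21, edgeR adjusted p = 0.000129). With PAM3 the 25HC change was -0.31 ± 0.21 (edgeR adjusted p = 0.247, 95% interval -0.76 to 0.14). The difference between the effects of 25HC was 0.84 ± 0.30 (edgeR adjusted p = 0.0466). It missed the threshold, at 0.72 to 0.87, without any 1 of 9 libraries: mouse 1, 2 or 3 of untreated cells at rest, 1 or 3 of 25HC-treated cells at rest, 2 or 3 with PAM3, and 1 or 3 with both agents.

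Tlr9 (chr9:106222598-106226883, plus strand), the receptor for CpG-rich DNA, reached its lowest levels under both agents. It measured 73.1, 163 and 87.7 CPM at rest and 37.6, 74.2 and 38.4 CPM after 25HC. PAM3 alone gave 33.8, 69.1 and 49.3 CPM, and 25HC with PAM3 gave 4.42, 8.36 and 5.69 CPM, from 252, 1096 and 246 counts. Every library with both agents lay below every other library of the study. With PAM3, 25HC lowered Tlr9 8.19-fold (log2 -3.03 ± 0.46, edgeR adjusted p = 8.7e-05), the largest change of the 10 genes in that comparison. In 25HC-treated cells PAM3 lowered it 8.07-fold (log2 -3.01 ± 0.46, edgeR adjusted p = 4.96e-05). At rest the 25HC change was -1.11 ± 0.42 (edgeR adjusted p = 0.0653, and 0.00178 with the animal as a block), lower in 3 of 3 mice, and the difference between the effects of 25HC was -1.93 ± 0.60 (edgeR adjusted p = 0.0273). That difference missed the threshold, at -1.53 to -1.87, without mouse 1 or 3 of untreated cells at rest, mouse 2 of 25HC-treated cells at rest, mouse 2 with PAM3, or mouse 1 or 3 with both agents.

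The fall of Tlr9 with PAM3 alone depended on single libraries. In untreated B6 it was -1.09 ± 0.42 (edgeR adjusted p = 0.0352). Without mouse 2 at rest it was -0.66 (edgeR adjusted p = 0.205), and it also missed the threshold without mouse 1 (-0.86, adjusted p = 0.129) or mouse 3 (-1.06, adjusted p = 0.0838) with PAM3. In Ch25h-/- cells Tlr9 measured 76.6, 239 and 102 CPM at rest and 60.7, 73.4 and 62.0 CPM with PAM3, a log2 change of -1.09 ± 0.42 (edgeR adjusted p = 0.0358). Without mouse 2 at rest that change was -0.45 (edgeR adjusted p = 0.331), and without mouse 1, 2 or 3 with PAM3 the adjusted p was 0.0875, 0.0538 and 0.0862. At rest the effect of 25HC on Tlr9 passed the edgeR test without mouse 1 of untreated cells (adjusted p = 0.0449) or mouse 2 of treated cells (adjusted p = 0.026).

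Tlr9 and Tlr7 are highly expressed in plasmacytoid dendritic cells, and Tlr9 in B cells, so markers of both were read beside them. The summed level of 7 plasmacytoid markers was 134 to 197 CPM in untreated B6 at rest, 64.4 to 111 CPM after 25HC, 55.4 to 69.9 CPM with PAM3 and 49.3 to 53.7 CPM with both agents. Most of it was Tcf4, at 39.9 to 280 CPM over the 18 libraries. Cox6a2 reached 8.96 CPM and Bcl11a 1.48 CPM, while Siglech did not exceed 1.1, Ccr9 0.46, Ly6d 0.137 and Klk1 0.0596 CPM. The summed level of 6 B cell markers was 8.31 to 11.7 CPM at rest, 4.31 to 5.41 CPM after 25HC, 7.81 to 17.3 CPM with PAM3 and 0.913 to 1.71 CPM with both agents. Most of it was Cd79b, at 0.86 to 23.3 CPM, while each of the other 5 stayed at or below 0.343 CPM. The part of Tcf4 and Cd79b in the changes of Tlr7 and Tlr9 was not tested.

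Because Tlr7 and Tlr9 compete for the same transport protein on the way to the endosome, their ratio was followed per kilobase of merged exon. The Tlr7 level over the Tlr9 level was 6.50, 2.80 and 5.62 in untreated B6 at rest and 5.07, 3.70 and 4.58 after 25HC. It was 4.39, 1.31 and 1.85 with PAM3 and 21.99, 9.63 and 15.7 with both agents. In the last group all 3 ratios exceeded those of every other library. In Ch25h-/- cells the ratio at rest was 6.603, 1.94 and 4.89, and PAM3 gave ratios of 1.87, 0.914 and 1.52.

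Tlr3 (chr8:45395665-45411080, minus strand), the endosomal receptor for double-stranded RNA, fell with each agent. It measured 35.2, 24.4 and 29.8 CPM at rest, 20.6, 23.2 and 16.1 CPM after 25HC, 20.5, 14.6 and 15.6 CPM with PAM3 and 8.46, 7.42 and 7.77 CPM with both. The libraries with both agents were the lowest of the 18, with no overlap with any other group. With PAM3, 25HC lowered Tlr3 2.14-fold (log2 -1.10 ± 0.17, edgeR adjusted p = 0.000103). PAM3 lowered it 1.77-fold in untreated cells (log2 -0.82 ± 0.17, edgeR adjusted p = 0.000544) and 2.53-fold in 25HC-treated cells (log2 -1.34 ± 0.17, edgeR adjusted p = 9.27e-06). The interaction was -0.52 ± 0.24 and did not pass the test (edgeR adjusted p = 0.109).

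The fall of Tlr3 with 25HC at rest was smaller, at -0.58 ± 0.17 (edgeR adjusted p = 0.0196). It missed the threshold without mouse 1 (-0.44, adjusted p = 0.0775) or mouse 3 (adjusted p = 0.0534) of untreated cells, and without mouse 1 (adjusted p = 0.0576) or mouse 3 (-0.45, adjusted p = 0.106) of treated cells. In Ch25h-/- cells Tlr3 measured 25.6, 22.8 and 29.9 CPM at rest and 19.999, 17.9 and 18.3 CPM with PAM3, groups that did not overlap. The log2 change was -0.48 ± 0.17 (edgeR adjusted p = 0.0219). It missed the threshold without mouse 2 or 3 with PAM3 (adjusted p = 0.0548 and 0.0538) or mouse 3 at rest (adjusted p = 0.0876).

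Of the DNA-sensing genes, Tmem173 (chr18:35733679-35740554, minus strand) measured 73.6, 107 and 72.9 CPM at rest and 71.7, 82.7 and 67.5 CPM after 25HC. It measured 42.8, 43.5 and 50.9 CPM with PAM3 and 27.8, 27.3 and 23.2 CPM with both agents. The groups at rest overlapped, and the libraries with both agents were the lowest of the 18. With PAM3, 25HC lowered Tmem173 1.75-fold (log2 -0.81 ± 0.17, edgeR adjusted p = 0.00108), and at rest the change was -0.19 ± 0.17 (edgeR adjusted p = 0.416). PAM3 lowered it 2.83-fold in cells that had 25HC (edgeR adjusted p = 3.02e-06), 1.85-fold in B6 cells without it (edgeR adjusted p = 0.00029) and 1.98-fold in Ch25h-/- cells (edgeR adjusted p = 0.000131). The interaction of 25HC and PAM3 was -0.62 ± 0.23 (edgeR adjusted p = 0.06). It passed with the animal as a block (adjusted p = 0.0248) and without mouse 2 of untreated cells at rest (-0.82, adjusted p = 0.012).

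Aim2 (chr1:173350879-173466040, plus strand) had the smallest standard errors of the 10 genes. It measured 62.6, 69.5 and 64.9 CPM at rest, 48.2, 50.6 and 43.3 CPM after 25HC, 46.7, 40.3 and 38.8 CPM with PAM3 and 41.0, 35.5 and 41.0 CPM with both agents. The untreated cells at rest lay above the other 3 B6 groups with no overlap, and the libraries with PAM3 alone and with both agents overlapped. 25HC lowered it 1.39-fold at rest (log2 -0.47 ± 0.11, edgeR adjusted p = 0.00698). PAM3 lowered it 1.57-fold in untreated B6 (log2 -0.65 ± 0.11, edgeR adjusted p = 0.000132) and 1.60-fold in Ch25h-/- cells (log2 -0.68 ± 0.11, edgeR adjusted p = 0.000106). With PAM3 the 25HC change was -0.10 ± 0.11 (edgeR adjusted p = 0.49, 95% interval -0.34 to 0.14). In 25HC-treated cells PAM3 changed it by -0.28 ± 0.11 (edgeR adjusted p = 0.0439). That call was lost without mouse 1 (adjusted p = 0.0848) or 2 (0.128) at rest, and without mouse 1 (0.0614), 2 (0.168) or 3 (0.0598) with PAM3. The interaction of 25HC and PAM3 was 0.37 ± 0.16 (edgeR adjusted p = 0.0879), and 0.45 (adjusted p = 0.0375) without mouse 1 with PAM3.

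Mb21d1 (chr9:78430526-78443237, minus strand; Cgas in the GENCODE M21 annotation) passed the edgeR test in none of the comparisons as fitted over all 18 libraries. It measured 32.4, 11.3 and 24.8 CPM at rest and 29.0, 18.8 and 30.8 CPM after 25HC. With PAM3 it measured 17.5, 12.97 and 15.0 CPM, and with both agents 22.6, 18.0 and 20.5 CPM. The 2 groups with PAM3 did not overlap, with the 25HC-treated libraries the higher in 3 of 3 mice. The 25HC change was 0.43 ± 0.37 with PAM3 (edgeR adjusted p = 0.365, 95% interval -0.36 to 1.21; 0.0379 with only these 2 groups fitted) and 0.20 ± 0.37 at rest (edgeR adjusted p = 0.716, 95% interval -0.59 to 0.99). The PAM3 change was -0.59 ± 0.37 in untreated B6 (edgeR adjusted p = 0.178) and -0.53 ± 0.38 in Ch25h-/- cells (edgeR adjusted p = 0.237). Without mouse 2 at rest these were -0.92 (edgeR adjusted p = 0.0321) and -0.89 (edgeR adjusted p = 0.0305). In 25HC-treated B6 the PAM3 change was -0.36 ± 0.37 (edgeR adjusted p = 0.415). With replicate number 2 of every group left out, the PAM3 changes passed the edgeR test. They were -0.81 in untreated B6 (edgeR adjusted p = 0.00108), -0.47 in 25HC-treated B6 (edgeR adjusted p = 0.0234) and -0.80 in Ch25h-/- cells (edgeR adjusted p = 0.00191).

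In Ch25h-/- cells Tlr7 measured 593, 545 and 584 CPM without PAM3 and 133, 78.7 and 111 CPM with it, a 5.34-fold fall (log2 -2.42 ± 0.22, edgeR adjusted p = 4.12e-07). Tmem173 measured 70.3, 104 and 77.4 CPM without PAM3 and 36.9, 45.5 and 44.3 CPM with it. Aim2 measured 60.1, 58.4 and 65.7 CPM without PAM3 and 43.3, 32.6 and 39.3 CPM with it. For these 3 genes every library with PAM3 lay below every library at rest. Mb21d1 measured 25.5, 7.95 and 21.99 CPM without PAM3 and 15.6, 11.2 and 11.8 CPM with it, and these groups overlapped, mouse 2 at rest being the lowest of the 6.

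The wide spread of Mb21d1 and Tlr9 followed the mouse number. Tlr9 was highest and Mb21d1 lowest in mouse number 2 in 6 of 6 groups. At rest the Tlr9 deviation of mouse number 2 from its group mean was 0.68 in B6 and 0.96 in Ch25h-/- cells, in log2 CPM. The Mb21d1 deviation was -0.88 in B6 and -1.05 in Ch25h-/- cells. Since B6 and Ch25h-/- mice with this number were different animals, the number marks no shared animal across genotypes. What the number stands for beyond the animal was not given in the sources used here. Over all genes tested, same-numbered libraries of the 2 genotypes at rest also deviated together. The correlations were 0.57, 0.70 and 0.33 for mouse numbers 1, 2 and 3. The spread by mouse number is therefore not read as particular to Mb21d1 and Tlr9.

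**Figure D4:**
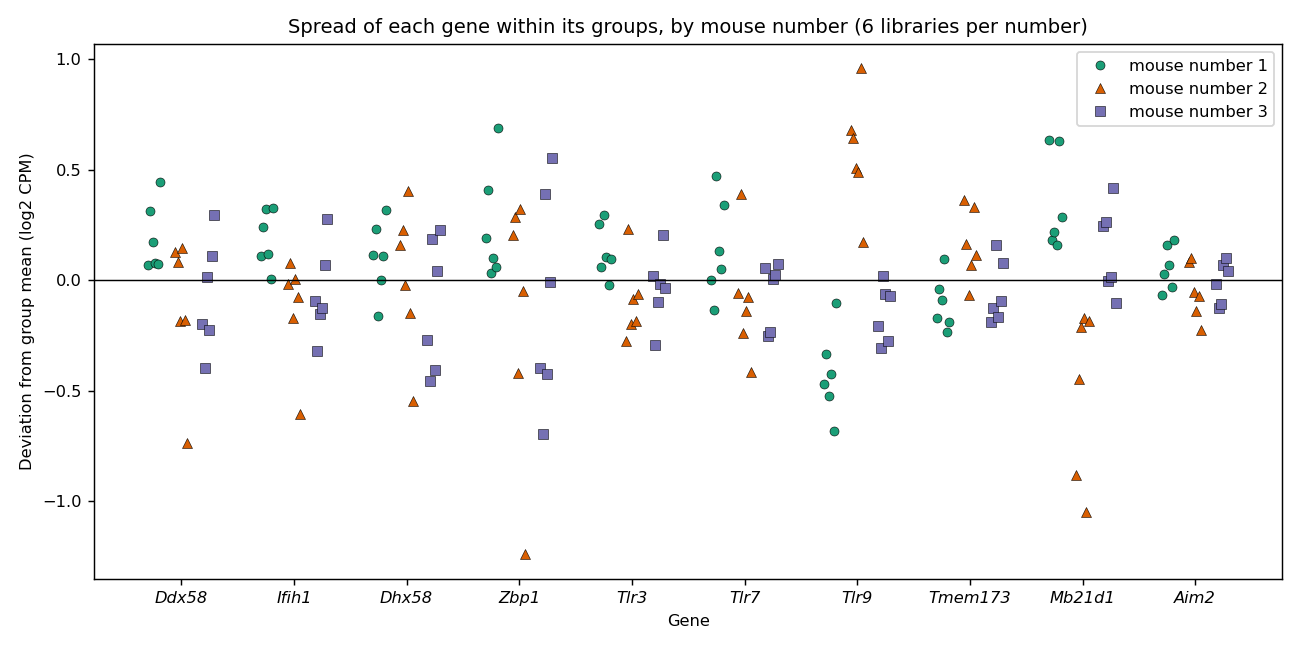
Deviation of each library from its group mean in log2 CPM for each sensor gene, with 6 libraries for each mouse number. All 6 triangles of mouse number 2 lie above 0 for Tlr9 and below 0 for Mb21d1, and for Zbp1 the Ch25h-/- library of mouse 2 with PAM3 lies at -1.24.

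Ch25h-/- cells did not differ from B6 cells in any of the 10 genes by the edgeR test, at rest or with PAM3. The comparison at rest called 0.00785% of all genes tested, which is 1 gene, or 14 with the mouse number as a block. With PAM3 it called 0.173%, which is 22 genes, or 368 with the mouse number as a block. Leaving out 1 library moved the count at rest to 4 (Ch25h-/- mouse 1) or 0 (Ch25h-/- mouse 3). With PAM3 it became 3, 85 and 3 without B6 mouse 1, 2 and 3, and 254, 3 and 1 without Ch25h-/- mouse 1, 2 and 3. At rest the smallest adjusted p of the 10 was 0.974 and with PAM3 0.606, and 0 of the 10 had an unadjusted p below 0.05 in either. DESeq2 also called 0 of the 10 in both. At rest the log2 differences ran from -0.49 for Zbp1 (95% interval -1.33 to 0.35) to 0.37 for Tlr9 (95% interval -0.52 to 1.25), intervals that hold changes of more than 2-fold. The narrowest was that of Aim2, at -0.10 (95% interval -0.33 to 0.14). With PAM3 the differences ran from -0.30 for Zbp1 (95% interval -1.13 to 0.53) to 0.36 for Tlr9 (95% interval -0.53 to 1.25). Ch25h itself was low in B6 with PAM3, at 1.66 to 3.55 CPM, and whether this bears on the comparison was not tested. The PAM3 responses of the 2 genotypes differed for 0 of the 10 and for 0% of all genes tested, with 0 members at an unadjusted p below 0.05, against 598 of all genes, and 0 members called by DESeq2.

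Compared per kilobase of merged exon, the order of the genes in untreated B6 at rest was Tlr7, Tlr9, Tmem173, Dhx58, Ddx58, Zbp1, Aim2, Ifih1, Tlr3 and Mb21d1. Tlr7 stood at 136 ± 5.46 CPM per kilobase (SD, n = 3), and the next, Tlr9, at 31.0 ± 13.8. Tlr9, Tmem173, Dhx58 and Ddx58 overlapped with their neighbours in that order, as did Zbp1 with Aim2 and Tlr3 with Mb21d1. With PAM3 alone the first place was held by Zbp1, at 83.7 ± 22.9 CPM per kilobase, overlapping with Dhx58 at 58.3 ± 7.18, and Tlr7, after Ddx58, at 31.7 ± 9.59. With both agents Tlr7 was first again, at 25.6 ± 2.42 CPM per kilobase, with no overlap with Dhx58 at 14.7 ± 4.08. Tlr9 was then last but one, at 1.77 ± 0.578, overlapping with Tlr3 at 1.51 ± 0.102. Ch25h-/- cells had Tlr7 first at rest, at 141 ± 6.31, and Zbp1 first with PAM3, at 68.1 ± 37.8. Tlr7 made up 37.5 to 45.6% of the summed CPM of the 10 genes in untreated B6 at rest and 8.49 to 13.7% with PAM3, a share of counts that also reflects transcript length.

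Across the 18 libraries Ddx58, Ifih1, Dhx58 and Zbp1 varied together. Tlr3, Tlr7, Tlr9, Tmem173 and Aim2 also varied together, while Mb21d1 did not exceed a correlation of 0.24 with any of them. The 6 pairs among the first 4 had Pearson correlations of log2 CPM from 0.83 to 0.96. The 24 pairs of these 4 with the other genes ran from -0.44 to 0.66. Ddx58 correlated at 0.66 with Tlr9 and at 0.65 with Tlr3, so the sets were not fully separate. The 15 pairs among the other 6 ran from -0.36 to 0.97, with a median of 0.74. Within groups, as deviations from the group means, the 6 pairs ran from 0.67 to 0.95. There the 24 pairs ran from -0.28 to 0.77, so the ranges overlapped. The 15 pairs among the other 6 ran from -0.92 to 0.84 within groups. Their median was -0.15, so as a set they did not vary together there. The library of Ch25h-/- mouse 2 with PAM3 was low for all 4 genes, at -0.54 to -1.24. It weighs on these values, and values without it were not computed. Tlr9 and Mb21d1 correlated at -0.92 within groups and Tmem173 and Mb21d1 at -0.88. Mouse number 2 was the highest for Tlr9 and the lowest for Mb21d1 in every group, as given above. Libraries share groups and animals, so these values are descriptions over 18 points that are not independent.

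**Figure D5:**
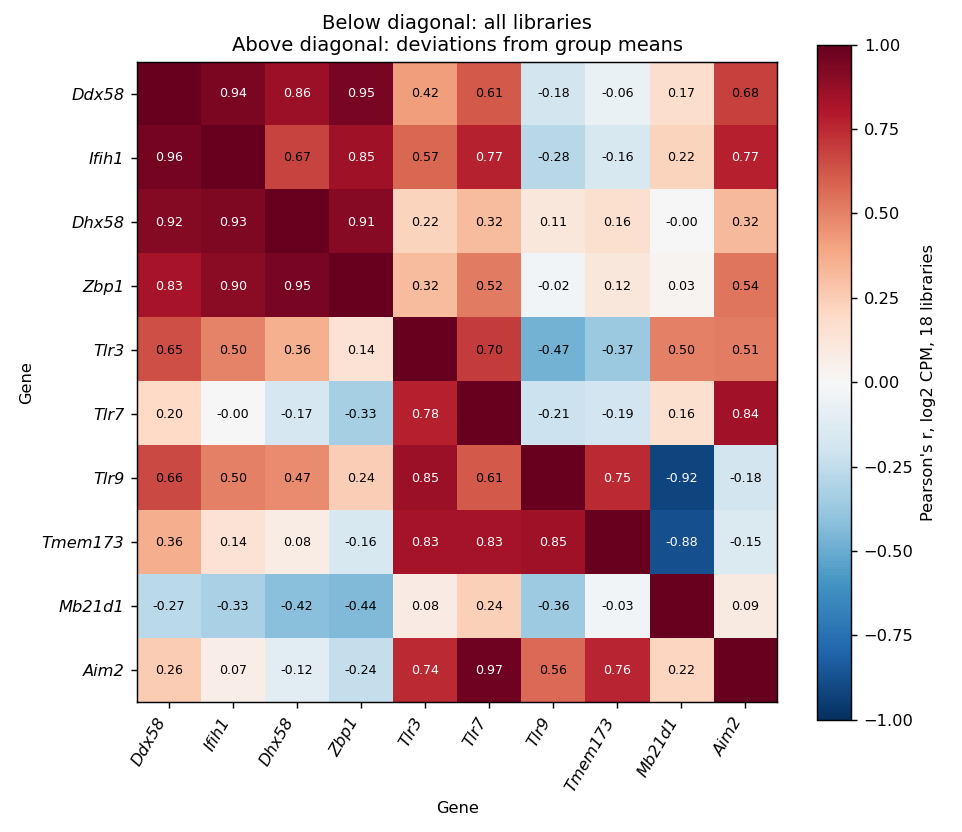
Pearson correlation of log2 CPM between sensor genes over 18 libraries, below the diagonal for the levels and above it for deviations from the group means. Ddx58, Ifih1, Dhx58 and Zbp1 form a block of 0.83 to 0.96 below the diagonal, and Tlr9 and Mb21d1 lie at -0.92 above it.

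The genes most like the members were sought among 9310 genes by correlation of log2 CPM over the 18 libraries. The closest to Ddx58 was Stat2 (r = 0.991), to Ifih1 Ifit1 (r = 0.973) and to Zbp1 Lgals9 (r = 0.964). Stat2 encodes a transcription factor that carries the interferon receptor signal. Aim2 was closest to Tlr7 (r = 0.971), and Tlr7 to Mbd4 (r = 0.978). The closest to Tlr9 was Klhl6 (r = 0.985), to Tmem173 Man2b2 (r = 0.978), to Tlr3 Ttc21b (r = 0.967) and to Mb21d1 Rpa2 (r = 0.948). Klhl6 measured 42.5 ± 14.1 CPM at rest and 3.93 ± 1.37 CPM with both agents (SD, n = 3 each).

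Other genes of these pathways were read from 6 lists. Among 17 further sensors, 25HC lowered 8 and raised 0 at rest, and lowered 11 and raised 2 with PAM3, with medians of -0.54 and -1.0001 against -0.01 and -0.04 for all genes. Of all genes tested, 11.4% were called lower and 14.8% higher at rest, and 23.6% lower and 21.5% higher with PAM3. Without mouse 3 of 25HC-treated cells at rest, 5 of the 17 were called at rest. At rest Tlr8, a further endosomal receptor, fell by 1.70 on the log2 scale (SE 0.28, edgeR adjusted p = 0.000722). With PAM3, Oas2, which makes oligoadenylates, was lowered from 141 ± 12.3 to 36.3 ± 4.55 CPM (SD, n = 3; edgeR adjusted p = 8.37e-06). Mndal, of the same family as Aim2, went down with it, from 147 ± 25.2 to 34.1 ± 4.47 CPM (edgeR adjusted p = 1.05e-05). PAM3 alone lowered 8 of the 17 and raised 2, where 30.8% of all genes were called lower and 31.3% higher, with Tlr13, a receptor for bacterial ribosomal RNA, at -2.87 ± 0.26 (edgeR adjusted p = 3.06e-07).

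The adaptors, kinases and downstream factors were not uniformly lower. Of 23, 25HC raised 4 and lowered 2 at rest (3 called without mouse 3 of untreated cells, or without mouse 1 or 3 of treated cells), and raised 5 and lowered 7 with PAM3, with medians of 0.00 and -0.02. These counts lie near the shares of all genes, 14.8% higher and 11.4% lower at rest, and 21.5% higher and 23.6% lower with PAM3. With PAM3, Ikbkg, the regulatory subunit of the IkB kinase, rose by 1.08 ± 0.10 and the ubiquitin ligase Traf6 by 0.94 ± 0.12 on the log2 scale (edgeR adjusted p = 2.43e-06 and 2.78e-05). Pycard, the adaptor that Aim2 recruits, fell from 137 ± 44.5 to 21.9 ± 6.54 CPM (log2 -2.64 ± 0.26, edgeR adjusted p = 3e-06). PAM3 alone raised 12 of the 23 and lowered 2, where 31.3% of all genes were called higher and 30.8% lower, among them Myd88, the adaptor of Tlr7 and Tlr9, at 1.04 ± 0.13 (edgeR adjusted p = 9.4e-06). Of 8 tested genes for interferon, its receptor and its factors, 25HC with PAM3 raised 4 and lowered 3 (21.5% and 23.6% of all genes), or 3 to 4 called in all without any 1 of the 6 libraries. The counts over all genes without those libraries are not reported here. Stat2 fell by 1.86 on the log2 scale (edgeR adjusted p = 4.49e-05).

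Of 12 regulators of the cytosolic sensors, 25HC with PAM3 raised 3 and lowered 3, near the shares of all genes called, 21.5% higher and 23.6% lower. Among them Usp18, an interferon-induced protease that restrains receptor signalling, was lowered from 167 ± 39.7 to 31.1 ± 8.07 CPM (edgeR adjusted p = 0.000114). Of 12 genes that fold, move or process endosomal Toll-like receptors, 2 rose and 5 fell, against the same shares of all genes. There Cd14, a co-receptor, rose by 1.82 ± 0.20 (edgeR adjusted p = 7.85e-06) and 5430427O19Rik, listed for the adaptor TASL, fell by 1.11 on the log2 scale (edgeR adjusted p = 2.74e-05). Of 13 tested nucleases and controls of self nucleic acid, 0 rose and 4 fell with both agents against PAM3 alone, where 21.5% of all genes were called higher and 23.6% lower. Enpp1, which degrades the messenger made by cGAS, went from 2.95 ± 0.383 to 0.597 ± 0.134 CPM (edgeR adjusted p = 4.09e-05), and Pld4, an endosomal exonuclease, from 354 ± 85.5 to 132 ± 8.81 CPM (edgeR adjusted p = 6.12e-05).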

How the data were processed

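RNA from cultured macrophages of 18 mouse cultures was prepared as stranded polyadenylated RNA libraries, per the labels' protocols. Per the submitters' processing notes, FastQC 0.11.9, GSNAP, featureCounts of Subread 1.5.2, edgeR 3.26.8 and GRCm38 (mm10) were used, with no role or order given there. The deposited values are raw read counts per gene, made by the authors and not normalized. The strand setting, the handling of multi-mapping reads and the annotation release were not given in the sources used here. Reads shared with overlapping or antisense genes cannot be told apart.

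The counts were tested with edgeR 4.0.16 in R 4.3.3, by the robust quasi-likelihood F test with TMM factors, the default filter by expression, 1 mean for each of the 6 groups and Benjamini-Hochberg adjustment over 12741 genes, at 0.05. The standard error is the absolute log2 fold change over the square root of F. Log2 CPM used a prior count of 2. The biological coefficient of variation was 0.192, with 12 residual degrees of freedom. The 2 interactions tested whether the 25HC effect differs with PAM3 and whether the PAM3 response differs by genotype. The scripts were tested on simulated data. Lengths and positions came from GENCODE M21 (GRCm38), which held 30118 of the 30530 identifiers. No 2 libraries of the same group agreed within sampling noise.

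The members and gene lists were chosen with earlier results of these data known. Named genes are all 10 members, the genes likest each by correlation (of mean at least 5 CPM; the first of 3 is given), and up to 3 genes of smallest adjusted p in each list and comparison; those whose call turned on 1 library were left out, and some genes the rule names are not reported here. Alternatives were DESeq2 1.42.0 and its size factors, unscaled library totals, other filters, only the groups compared, blocks, and libraries left out. The block is the animal within B6, and the mouse number between genotypes. Same-numbered libraries deviated together at rest, with correlations of 0.45, 0.58 and 0.35 between untreated and 25HC-treated B6, and of 0.57, 0.70 and 0.33 between genotypes. With PAM3 they were 0.41, 0.38 and -0.16, and 0.32, 0.46 and 0.09.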

Additional observations from a re-analysis of the deposited data

Results flagged for a closer look

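The effect of 25HC differed between cells with PAM3 and cells at rest for 6 of the 10 genes by edgeR's interaction test, each in the same direction in 3 of 3 mice. On the log2 scale the differences were -1.93 for Tlr9, -1.82 for Zbp1, -1.50 for Dhx58, -1.18 for Ddx58, -0.91 for Ifih1 and 0.84 for Tlr7. Of all genes tested, 15.8% were called in the negative direction and 12.5% in the positive. Dhx58 was called in each of 20 alternative settings. The others were lost in some, with Ddx58 called in 17, Zbp1 and Ifih1 in 14, Tlr9 in 13 and Tlr7 in 11.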

How the results depend on the processing

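At rest, 25HC lowered 3 sensor genes, and 6 with DESeq2, with the replicate block of the animal, or with replicate number 2 of every group left out. Over all genes that comparison went from 3334 to 5103 calls without replicate 2 of every group, and to between 1524 and 3801 without single libraries. The counts over all genes with DESeq2 and with the block are not reported here. The rise from 3 to 6 is therefore not read as particular to the sensor genes. With PAM3 in Ch25h-/- cells, 8 sensor genes became 5 without mouse 3 with PAM3. The count over all genes in that setting is not reported here, and the drop is not read as particular to the sensor genes. Between genotypes at rest 1 gene over all was called, with 0 when only the groups compared were fitted, 21 with DESeq2, 14 with the mouse number as a block, 2 without replicate 2 of every group, and 0 to 4 without single libraries. With PAM3 22 were called, with 14 on unscaled totals, 13 with no filter, 0 with only the groups compared, 404 with DESeq2, 368 with the block, 384 without replicate 2 of every group, and 1 to 254 without single libraries. The interaction of 25HC and PAM3 called 6 sensor genes, 3 with no filter, and 1 to 6 without single libraries. Over all genes 3611 became 2288 to 4481 without single libraries, and the count with no filter is not reported here. The genotype interaction went from 0 to 2 genes with DESeq2. Of the lists, the 14 adaptor calls with PAM3 in untreated B6 became 8 with only the groups compared, and the 4 nuclease calls for 25HC with PAM3 became 7 without replicate 2 of every group. The counts over all genes in those settings are not reported here, so neither shift is read as particular to its list. The cause of these shifts was not tested.

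Values whose sign turned were all outside the threshold. For 25HC at rest these were Tmem173, at -0.29 to 0.014 without single libraries, and Mb21d1, at -0.13 to 0.54. For PAM3 in 25HC-treated cells, Zbp1 was at -0.078 on unscaled totals and at -0.18 to 0.29 without single libraries. Between genotypes at rest, Tlr7 was at -0.025 with no filter, Tmem173 at 0.011 without replicate 2 of every group, and without single libraries Tlr9 was at -0.28 to 0.79, Tmem173 at -0.19 to 0.19 and Mb21d1 at -0.62 to 0.063. With PAM3, without replicate 2 of every group, Ddx58 was at 0.088 and Dhx58 at 0.023. Without single libraries Ddx58 was at -0.33 to 0.17, Dhx58 at -0.35 to 0.032, Ifih1 at -0.12 to 0.28, Zbp1 at -0.60 to 0.096 and Tlr7 at -0.45 to 0.0072. The interaction of Mb21d1 was -0.11 to 0.56 without single libraries. Where a block changed a member's call it stands beside that result, and it changed no other member's call. For Mb21d1 the call depended on the libraries and groups fitted, as given beside its values.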
